A study of Mus musculus with 6 samples.

Results

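The 7 genes described here belong to the complement cascade. They are C1ra and C1s1, the mouse genes for the C1r and C1s proteases, C4b, C3, Cfb (factor B), Serping1 (C1 inhibitor) and Cfi (factor I). The genes were taken by symbol from the 32285 genes of the count matrices, and each symbol matched 1 gene in all 6 libraries. Each of the 7 reached a mean of 1 scaled CPM over the libraries (UMI counts scaled to a common library size), as 13460 of the 32285 genes did.

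Complement is a set of plasma and cell surface proteins that tag cells and debris for removal. In the classical pathway the recognition protein C1q carries the proteases C1r and C1s, which cut C4 and then C2, while the alternative pathway amplifies on surfaces through factor B. The routes meet at C3, whose cleavage products coat surfaces and call in phagocytes, and inhibitors such as C1 inhibitor and factor I hold the cascade in check. The liver makes most plasma complement, and kidney tubule, stromal and myeloid cells are known to make some components locally.

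The libraries were 10x Visium sections of frozen mouse kidney, a spatial assay in which each barcoded spot captures RNA from a small patch of tissue that can hold several cells. WT was a B6C57 mouse of unstated age. The libraries 2m AS and 5m AS were Alport syndrome mice with the genotype B6.Cg-Col4a5tm1Yseg, a mutant of a type IV collagen gene of basement membranes, at 2 and 5 months. Early treated and late treated 5m AS had the same genotype and age and were given hEV, for which no dose, date or meaning of early and late was found in the labels. The mixed library was titled WT Female & Hetero Female, with both genotypes in its label, and was read here as 1 animal of each. How their tissue was combined was not stated, and the sex of the other mice was not given. The series was meant to follow the course of the disease and its state after treatment. Each group was 1 library, so no test was run and no difference has a replicate check.

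The libraries held 1997 to 4093 spots, 48940875 to 91976637 unique molecular identifiers (UMIs) and a median of 12736 to 28433 UMIs per spot. Kidney markers were abundant throughout, with Umod, a thick ascending limb gene, at 2214 to 4943 scaled CPM and Slc34a1, a proximal tubule gene, at 2358 to 6946. Col4a5, the gene named in the genotype, stood at 11.9 scaled CPM in WT and 13.2 in the mixed library, and at 3.39 to 6.54 in the 4 AS libraries. Space Ranger 1.2.1 made the counts for WT and 5m AS and version 1.3.1 those for the other 4 libraries, so between these sets group and version cannot be told apart. Spot barcodes are slide positions, and any 2 libraries shared 1361 to 3083 of them. Of the liver genes checked, Alb was at 2.80 to 17.1 scaled CPM and Serpina3k at 0 to 0.0146, while Ttr was at 177 to 565. Intervals below are 95% exact intervals of the UMI counts and leave out any spread between animals or between sections. In sums over a section, more cells of a type and more RNA per cell cannot be told apart.

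In the mm10 build C3 spans chr17:57203970-57228136, C4b chr17:34728380-34743882 and Cfb chr17:34856374-34862518, all on the minus strand. C1ra spans chr6:124512405-124523443 on the plus strand and C1s1 chr6:124530345-124542359 on the minus strand. Cfi lies at chr3:129835884-129875332 on the plus strand and Serping1 at chr2:84765387-84775444 on the minus strand. All 7 are protein coding. RefSeq promoter windows (GRCm38.p6, 250 bases before to 50 after the start) were found only for C3, the hub of the cascade, and the C1 protease pair C1ra and C1s1. These are shown, and the other 4 genes had no window. They run 5′ to 3′ on the gene's strand, with motif matches in capitals.
C3: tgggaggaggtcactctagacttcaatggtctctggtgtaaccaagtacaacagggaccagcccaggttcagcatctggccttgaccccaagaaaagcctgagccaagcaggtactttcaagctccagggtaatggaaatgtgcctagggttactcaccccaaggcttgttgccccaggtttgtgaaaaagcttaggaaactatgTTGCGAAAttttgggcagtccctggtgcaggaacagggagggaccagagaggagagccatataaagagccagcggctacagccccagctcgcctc
C1ra: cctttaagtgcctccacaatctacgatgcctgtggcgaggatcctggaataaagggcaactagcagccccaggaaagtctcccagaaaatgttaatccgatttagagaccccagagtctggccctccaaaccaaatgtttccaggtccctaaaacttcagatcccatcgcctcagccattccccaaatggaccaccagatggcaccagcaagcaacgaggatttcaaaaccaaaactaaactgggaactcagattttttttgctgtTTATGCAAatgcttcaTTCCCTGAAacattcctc
C1s1: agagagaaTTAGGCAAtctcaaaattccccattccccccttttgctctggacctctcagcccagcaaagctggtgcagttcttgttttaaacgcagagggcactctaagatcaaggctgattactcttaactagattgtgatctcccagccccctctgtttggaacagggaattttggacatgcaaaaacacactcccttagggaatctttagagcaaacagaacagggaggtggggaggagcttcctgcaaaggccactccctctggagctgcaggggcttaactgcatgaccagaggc
The windows are chr17:57228087-57228386 for C3, chr6:124512371-124512670 for C1ra and chr6:124542310-124542609 for C1s1, the first of 2 windows listed for that gene. Each holds the form TTGCNNAA of a C/EBP site on 1 strand or the other, starting 45 bases before the start in C3 and 242 before it in C1s1, and 16 bases after the start in C1ra. The RefSeq start used for C1ra lies inside the gene span given above, which begins at 124512405, so most of that window lies within the span. The C1ra window also holds TTCNNNGAA, a form bound by STAT proteins. The motifs GAAANNGAA, an interferon response core, and the NF-kB consensus had no match in the 3 windows on either strand. Of 32851 windows of 300 bases, 10.8% hold TTGCNNAA, 8.30% TTCNNNGAA, 8.56% GAAANNGAA and 8.46% the NF-kB consensus.

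The section sums separated the 7 genes into 6 that were at least 2-fold higher in 5m AS than in WT and Cfb, which was lower. C3 stood out, at 32.2 times the WT level. C4b was at 7.28, Cfi at 6.21 and Serping1 at 4.28 times WT, and the C1 protease genes C1s1 and C1ra at 2.36 and 2.23 times. Of all genes tested, 9.64% were at least 2-fold higher in that comparison. Over the 7 genes the median log2 ratio was 2.10, and over all genes -0.10.

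C1ra, the protease that activates C1s, was at 15.6 scaled CPM in WT, 17.1 in the mixed library and 16.0 in 2m AS, and at 34.9, 28.5 and 27.6 in untreated, early treated and late treated 5m AS. The 3 libraries of 5 months lay above the other 3. C1s1, the protease that cuts C4 and C2, was at 24.4, 34.7, 30.9, 57.7, 50.8 and 42.0 in the same order. Both genes were thus highest in 5m AS, and their ratio of 5m AS to WT had intervals of 2.07 to 2.40 and 2.23 to 2.51. Close copies of these genes exist, with transcripts 98.0% identical for C1ra and C1rb and 95.9% for C1s1 and C1s2, but C1rb was at most 0.0894 and C1s2 at most 0.172 scaled CPM in any library. C4b encodes the C4 protein that C1s cuts. It was at 7.33 scaled CPM in WT, 3.86 in the mixed library and 10.1 in 2m AS, and at 53.4, 75.2 and 45.7 in untreated, early treated and late treated 5m AS. Of the 7 genes it alone had its highest level in early treated 5m AS. Its copy C4a, 96.1% identical, was at 3.35, 0.387, 0.339, 0.945, 2.93 and 1.16 in that order, and reads in their shared stretches cannot be assigned to either.

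C3, on which the pathways converge, was at 12.0 scaled CPM in WT, 24.1 in the mixed library and 24.3 in 2m AS, and at 387, 267 and 118 in untreated, early treated and late treated 5m AS. These levels rest on 823, 1682, 1787, 22961, 15381 and 7885 UMIs. The order was 5m AS, early treated, late treated, then 2m AS and mixed side by side, then WT. The ratio of 5m AS to WT had an interval of 30.0 to 34.5. Cfb, the protease of the alternative pathway convertase, had another order, with 442 scaled CPM in WT, 218 in the mixed library and 265 in 2m AS, and 293, 349 and 329 in untreated, early treated and late treated 5m AS. WT was highest and the mixed library lowest, so the 4 AS libraries lay between the 2 libraries that held wild-type tissue. The mixed library was all female and also held heterozygous tissue, and the part of sex or genotype in its levels cannot be told apart. Cfb also overlaps Gm20547 on the same strand, which is no row of the matrices.

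Serping1, the inhibitor of C1r and C1s, was at 60.1 scaled CPM in WT, 88.2 in the mixed library and 94.2 in 2m AS, and at 257, 174 and 114 in untreated, early treated and late treated 5m AS. Cfi, which cuts C3b and C4b to inactive forms, was at 3.60, 12.0, 6.11, 22.3, 20.8 and 13.0 in the same order. Both inhibitors were highest in 5m AS, and Cfi in late treated 5m AS was close to the mixed library.

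**Figure D1:**
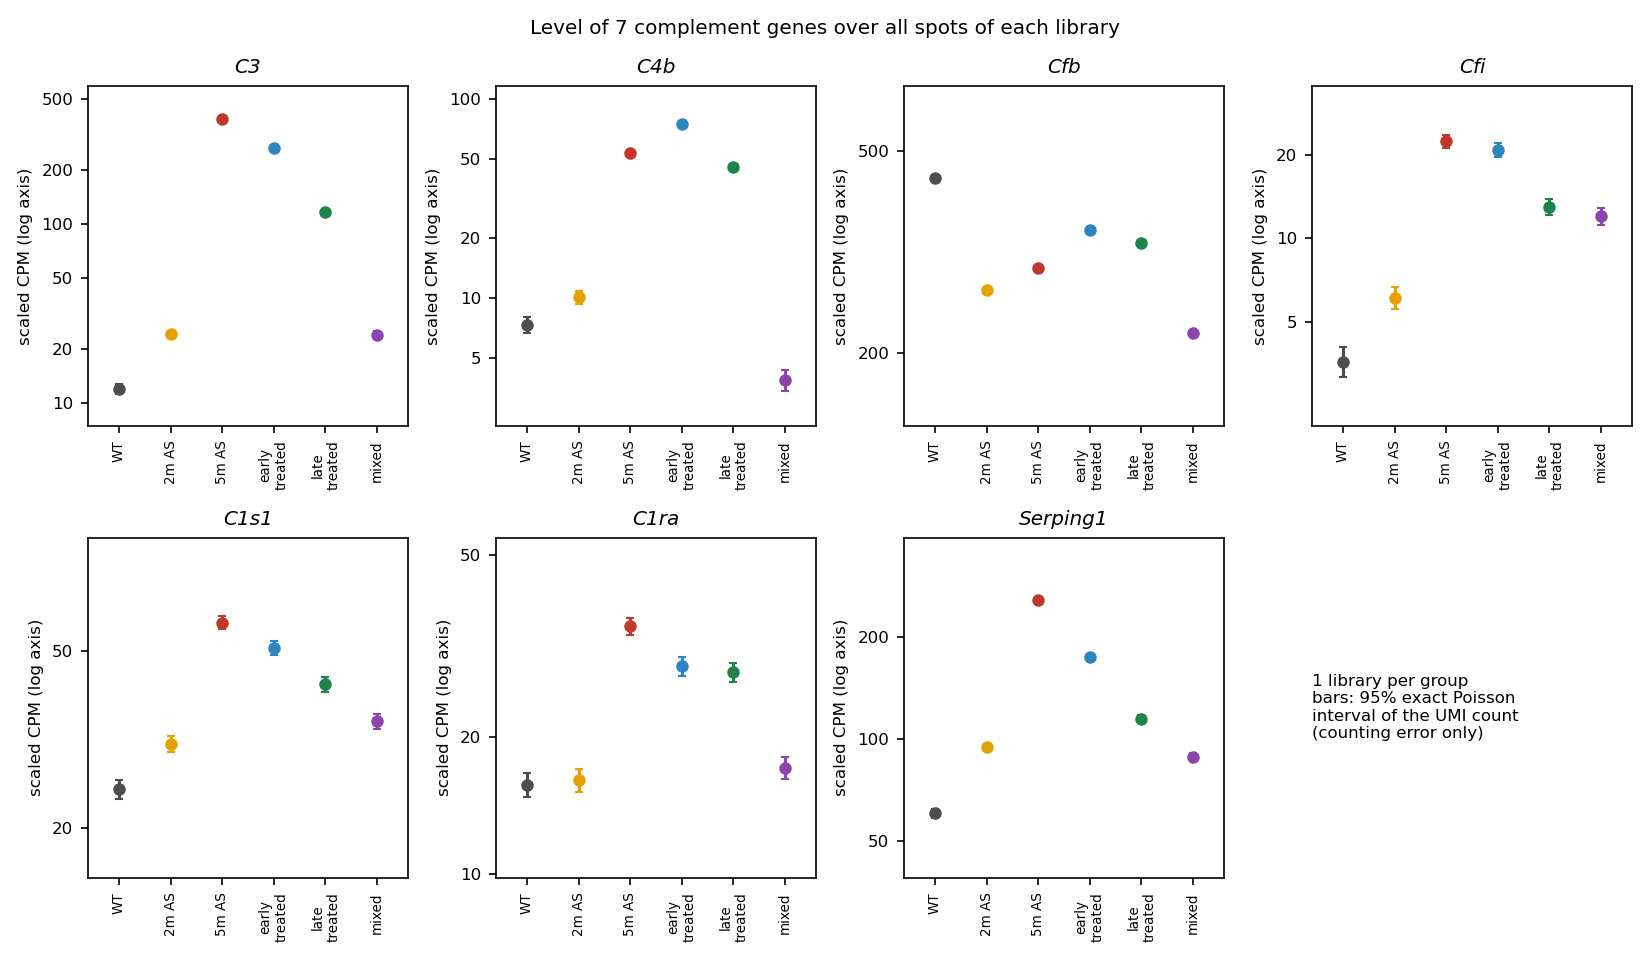
Level of each of the 7 genes over all spots of each library, in scaled CPM on a log axis, with 1 point per library and bars for the 95% exact Poisson interval. C3 runs from 12.0 in WT to 387 in 5m AS, C4b is highest in early treated 5m AS at 75.2, and Cfb is highest in WT at 442.

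At 2 months only C3 reached 2-fold over WT, at 2.02 times with an interval of 1.86 to 2.19 that spans the threshold, against 2.73% of all genes. Cfi was at 1.70, Serping1 at 1.57, C4b at 1.37, C1s1 at 1.26, C1ra at 1.02 and Cfb at 0.600 times WT. Their median log2 ratio was 0.46 over the 7 genes and -0.03 over all genes. The mixed library was apart from WT by as much for C3, at 2.00 times (1.84 to 2.18), and further for Cfi, at 3.34 times (2.89 to 3.86). The mixed library was also set in place of WT, a choice made after the values were seen. The log2 ratio of 2m AS was then 0.01 for C3, 1.38 for C4b, -0.97 for Cfi and 0.28 for Cfb. It was -0.17 for C1s1, 0.09 for Serping1 and -0.09 for C1ra. C4b was thus the 1 gene of the 7 at least 2-fold higher, and the share of all genes over the mixed library was not counted.

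From 2m AS to 5m AS, 5 of the 7 genes were at least 2-fold higher, where 10.8% of all genes were. C3 was 16.0 times as high (15.2 to 16.8), C4b 5.30 times, Cfi 3.65 times, Serping1 2.73 times and C1ra 2.18 times. C1s1 lay just under the threshold at 1.87 times and Cfb was at 1.10 times. The 7 genes had a median log2 ratio of 1.45 against -0.01 for all genes. The 2 libraries differ in Space Ranger version as well as in age.

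In mixed over WT, 2 of the 7 genes, C3 and Cfi, were at least 2-fold higher, where 4.03% of all genes were, and 1, Cfb, was 2-fold lower at 0.494 times (0.484 to 0.504), where 3.24% were. The log2 ratio of Cfb was -1.02, and -0.89 with plain CPM, -0.97 with median-of-ratios factors or without mitochondrially encoded genes and -0.91 with kinds of spot weighted alike, all within 2-fold. C4b lay just outside the lower threshold at 0.526 times, and Serping1 was at 1.47, C1s1 at 1.42 and C1ra at 1.09 times. The 7 genes had a median log2 ratio of 0.51 and all genes of -0.03. In 5m AS the log2 ratio to WT and to the mixed library was 5.01 and 4.01 for C3, 2.86 and 3.79 for C4b, 2.63 and 0.90 for Cfi, and -0.59 and 0.42 for Cfb. The direction for Cfb therefore depended on which of these libraries was the comparison, in each of the 4 AS libraries. With the mixed library in place of WT, 2 of the 7 genes in place of 5 were at least 2-fold higher in early treated 5m AS. The share of all genes over the mixed library was not counted, so this change has no base beside it. Cfi and C1s1 then also fell below 2-fold in 5m AS, and Cfi in late treated 5m AS.

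The treated libraries were compared with 5m AS of the same age. In late treated 5m AS, 2 of the 7 genes were at least 2-fold lower, where 4.61% of all genes were. C3 was at 0.303 times (0.296 to 0.311) and Serping1 at 0.445 times (0.433 to 0.457). Cfi was at 0.583, C1s1 at 0.727, C1ra at 0.793 and C4b at 0.857 times, and Cfb at 1.12 times. The median log2 ratio was -0.46 over the 7 genes and -0.03 over all genes.

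In early treated 5m AS none of the 7 was 2-fold lower than in 5m AS, where 1.94% of all genes were. Serping1 was at 0.675 and C3 at 0.689 times, C1ra at 0.817, C1s1 at 0.880 and Cfi at 0.931 times (0.860 to 1.01). C4b was at 1.41 times (1.35 to 1.48) and Cfb at 1.19 times. Here the median log2 ratio was -0.18, and -0.01 over all genes. Both treated libraries came from the other Space Ranger version than 5m AS.

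Early and late treated 5m AS were counted with the same version. C3 was 2.27 times as high in early as in late treated (2.21 to 2.33), the 1 gene of 7 at least 2-fold higher, where 1.24% of all genes were, and none was 2-fold lower, where 0.624% were. C4b was at 1.65, Cfi at 1.60, Serping1 at 1.52, C1s1 at 1.21, Cfb at 1.06 and C1ra at 1.03 times. The median log2 ratio was 0.60, and 0.02 over all genes.

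Neither treated library was at the WT level for the genes highest in 5m AS. Over WT, early treated 5m AS had 5 of 7 genes at least 2-fold higher, where 7.46% of all genes were. C3 was at 22.2 times, C4b at 10.3, Cfi at 5.78, Serping1 at 2.89 and C1s1 at 2.08 times, while C1ra was at 1.82 and Cfb at 0.790 times. Late treated 5m AS had 3 of 7, where 5.87% of all genes were. C3 was at 9.76 times, C4b at 6.24 and Cfi at 3.62 times, with Serping1 just under the threshold at 1.90, C1ra at 1.77, C1s1 at 1.72 and Cfb at 0.745 times. The median log2 ratio was 1.53 in early and 0.93 in late treated, and -0.08 over all genes in both. These comparisons share the WT library, and those with 5m AS share that library.

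Scaling moved the base of these ratios. With plain CPM the median log2 ratio over all genes in 5m AS over WT was 0.30 in place of -0.10, and of the genes 2-fold apart 90.0% were higher, in place of 69.0%. The same share went from 58.7% to 90.8% for 5m AS over 2m AS, from 72.3% to 94.7% for early treated over WT, from 66.2% to 94.2% for late treated over WT, from 59.4% to 44.1% for 2m AS over WT and from 55.7% to 66.9% for mixed over WT. With each spot weighted equally it was 71.3% for 2m AS over WT. Under plain CPM C3 was less than 2-fold higher in 2m AS than in WT. In late treated 5m AS over WT, 6 of the 7 genes in place of 3 were then at least 2-fold higher. The base moved as well. Over all genes tested with UMIs in both libraries, 1664 in place of 788 were 2-fold higher in late treated over WT. In 2m AS over WT 288 in place of 366 were. With plain CPM the log2 ratio of Cfb over WT in the early and late treated libraries was 0.12 and 0.02, in place of -0.34 and -0.42.

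Other genes of the cascade were read from a list of 46, of which 27 had a mean of at least 1 scaled CPM. In 5m AS over WT, 14 of the 27 were at least 2-fold higher and 1 lower, where 9.64% and 4.33% of all genes were. In the classical pathway 3 of 5 were higher, the chains of C1q. C1qa was at 28.7 scaled CPM in WT, 49.0 in the mixed library and 32.2 in 2m AS, and at 178, 105 and 82.3 in untreated, early treated and late treated 5m AS. C1qb went from 35.5 in WT to 211 in 5m AS and C1qc from 20.9 to 138, while C4a was the 1 gene lower. C1qa shared with C3 the order of 5m AS, early treated and late treated, all above the rest, while the mixed library lay above 2m AS.

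Among the receptors for complement fragments 5 of 6 were higher in 5m AS than in WT. C3ar1, the receptor for C3a, was at 1.24 scaled CPM in WT and 10.8 in 5m AS, and C5ar1, the receptor for C5a, at 0.761 and 6.56. Itgam, a chain of the receptor for iC3b on myeloid cells, was at 0.366 and 6.93, and its relative Itgax at 3.25 and 16.2. Among the regulators, the surface inhibitors Cd55 and Cd59a and the secreted Clu were within 2-fold. In the lectin pathway 2 of 4 were higher, Colec12 (15.9 to 42.6) and Masp1 (1.21 to 2.66). In the terminal pathway, whose genes build the membrane pore, 1 of 3 was higher, C6 (0.439 to 4.45). C8a and C8g were within 2-fold.

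Both alternative pathway genes beside Cfb were higher in 5m AS. Cfp, properdin, which steadies the convertase, was at 4.45 scaled CPM in WT and 13.1 in 5m AS. Cfd, factor D, which cuts factor B and is known as an adipocyte product, was at 0.0731 in WT, 0.0287 in the mixed library and 6.06 in 2m AS, and at 5.48, 2.06 and 0.0298 in untreated, early treated and late treated 5m AS. The summed level of 5 adipocyte markers was 0.132, 0.172, 2.77, 2.02, 0.555 and 0.0745 in the same order, and its part in the Cfd values was not tested.

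Compared with 5m AS, late treated 5m AS had 8 of the 27 at least 2-fold lower and none higher, where 4.61% and 2.78% of all genes were. The 8 were C1qa (0.462 times), C1qb (0.406), C1qc (0.412), Cfp (0.484), C6 (0.345), C8a (0.281), C5ar1 (0.491) and Cfd (0.00544). Early treated 5m AS had 2 lower, Cfd (0.377 times) and C8a (0.113), and 1 higher, C4a (3.10), where 1.94% and 1.6% of all genes were. In early over late treated, 3 of the 27 were higher and 1 lower, against 1.24% and 0.624% of all genes. In 2m AS over WT 2 were higher and 1 lower, against 2.73% and 1.86%, and in 5m AS over 2m AS 15 higher and 1 lower, against 10.8% and 7.59%. Early treated over WT had 12 higher and 2 lower, against 7.46% and 2.85%, and late treated over WT 9 higher and 4 lower, against 5.87% and 2.99%. Mixed over WT had 3 higher and 3 lower, against 4.03% and 3.24%.

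Markers of other cells also differed between the libraries. The summed level of 10 macrophage markers was 103 scaled CPM in WT, 209 in the mixed library and 167 in 2m AS, and 972, 607 and 426 in untreated, early treated and late treated 5m AS. The 8 fibroblast markers summed to 154, 165, 381, 1074, 649 and 474, and the 9 injured tubule markers to 826, 2505, 1322, 6894, 4735 and 2444. All 3 lists had the order of C3 among the 3 libraries of 5 months. Spp1, osteopontin, took 80.5% to 95.3% of the injured tubule list. In the mixed library Spp1 was at 2387 and in late treated 5m AS at 2225, and it alone of the list was higher in the mixed library of these. Havcr1 was at 0.703 and 21.1 and Lcn2 at 2.09 and 15.8 in the same order. The near equal sums of these libraries thus rest on Spp1. The 6 early proximal tubule markers went the other way, at 9334 in WT and 3286 in 5m AS. The part of these cells in the section sums was not tested.

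The counts per spot showed how widely each transcript was found. After each spot was thinned to 5000 UMIs, C3 had a UMI in 4.85% of WT spots (exact binomial interval 4.21 to 5.56), 9.81% of the mixed library and 9.02% of 2m AS, and in 75.5% (73.5 to 77.4), 60.5% and 37.7% of untreated, early treated and late treated 5m AS spots. Unthinned, the shares were 16.0%, 26.3%, 31.1%, 96.9%, 79.6% and 67.6%. C3 was thus found in most spots of 5m AS and not in a small set of them. Thinning left out 71, 386, 151, 65, 626 and 239 shallower spots in the same order.

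Serping1 was found in 22.6% of thinned WT spots, 32.7% of the mixed library and 29.8% of 2m AS, and in 72.9%, 58.9% and 44.1% of untreated, early treated and late treated 5m AS. C4b was found in 2.81%, 1.96%, 4.57%, 26.0%, 33.7% and 24.3%. C4b had the order of its levels in CPM, and Serping1 did too except that the mixed library lay above 2m AS. Cfb was in 61.1% to 83.1% of thinned spots in the 6 libraries, the highest being WT and early treated, and Cfi in 1.52% of WT and 11.6% of 5m AS spots.

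Within each library, spots with at least 500 UMIs were ranked by the share of their UMIs that came from a marker list, and the top 10% was set against the other spots. Such a set is a range of a score and not a cell type. In 5m AS the top 10% by the injured tubule list had 1007 scaled CPM of C3 against 316 in the other spots, a ratio of 3.19 (3.10 to 3.28). Cfi was at 2.98 times (2.63 to 3.38), C4b at 1.82, Cfb at 1.32 and Serping1 at 1.16 times, with intervals of 1.36 to 1.65 for C1s1 and 1.33 to 1.70 for C1ra. By the fibroblast list C3 was at 2.34 times, C1s1 at 2.10, C1ra at 1.92, Cfi at 1.87, Serping1 at 1.86, C4b at 1.82 and Cfb at 0.993 times. Between these lists, C3 and Cfi thus leaned to the injured tubule list, and Serping1, C1s1 and C1ra to the fibroblast list. Spots were also ranked by other lists, among them that of macrophages, whose values in 5m AS are not reported here. The leanings named are therefore between the injured tubule and fibroblast lists only, and do not set C3 apart from the macrophage list.

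In late treated 5m AS the same split was wider. The top 10% by the injured tubule list had 534 scaled CPM of C3 against 82.9 in the other spots, a ratio of 6.44 (6.14 to 6.74), while Serping1 was at 1.29, C1s1 at 1.25 and C1ra at 1.32 times. By the fibroblast list Serping1 was at 428 against 92.3 scaled CPM, a ratio of 4.64 (4.40 to 4.88), C1s1 at 3.53, C1ra at 3.07 and C3 at 3.81 times. Without Spp1 in the injured tubule list, the ratios there were 7.63 for C3, 2.19 for Serping1, 2.14 for C1s1 and 1.78 for C1ra. In early treated 5m AS C3 was at 3.67 times by the injured tubule list and 2.19 by the fibroblast list, and Serping1 at 1.03 and 2.85 times.

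The rank of C3 was another one in the libraries where it was low. In WT C3 was at 0.858 times in the top 10% by the injured tubule list (0.664 to 1.09), and at 3.97 times by the podocyte list (3.39 to 4.64), with 38.3 against 9.64 scaled CPM. In 2m AS it was at 5.95 times by the fibroblast list and 6.01 by the macrophage list, and at 3.43 by the injured tubule list. In the mixed library it was at 5.45, 5.85 and 2.57 times. Without Spp1 the injured tubule list gave 1.55 in WT, 4.95 in 2m AS and 5.49 in the mixed library. Havcr1 and Lcn2 of that list were at 0.395 and 0.512 scaled CPM in WT and 0.703 and 2.09 in the mixed library, so a high score there need not mark injury. By the podocyte list C3 was at 1.41 times in 5m AS.

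Cfb went against the others here too. By the fibroblast list it was at 0.739 to 0.993 times in the 6 libraries, and by the early proximal tubule list at 1.11 to 1.42 times. By the late proximal tubule list, C3 was at 0.311 to 0.742 times and Cfi at 0.132 to 0.526 times in the 6 libraries. The top 10% was often shallower than the other spots, as by the fibroblast list in late treated 5m AS, with a median of 11107 against 19152 UMIs per spot.

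**Figure D2:**
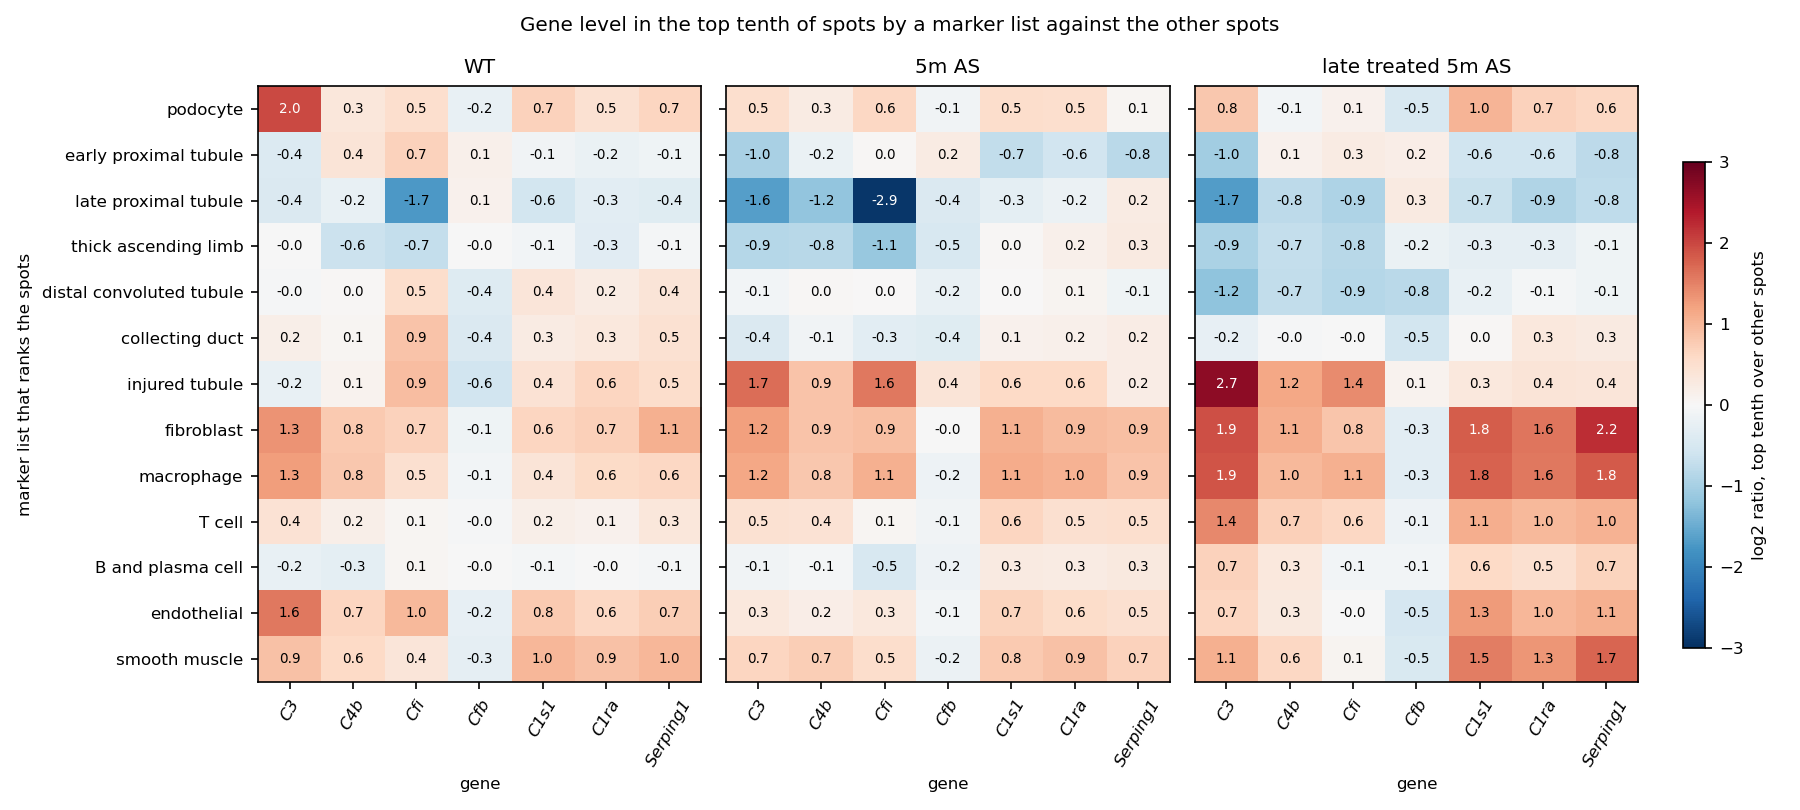
Log2 ratio of each gene's level in the top 10% of spots by a marker list (rows) over the other spots, in WT, 5m AS and late treated 5m AS, with red for higher and blue for lower. C3 is high in the podocyte row of WT (3.97 times) and in the injured tubule row of late treated 5m AS (6.44 times), where Serping1 is high in the fibroblast row (4.64 times).

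With the 5m AS spots cut into 10 bins of equal size by the injured tubule list, C3 went from 157 scaled CPM in the lowest bin to 1010 in the highest and Cfi from 10.3 to 55.5. C4b went from 31.5 to 89.7 and Serping1 from 200.2 to 295, while Cfb was at 307 and 374. Ranked by the fibroblast list, C3 went from 209 to 806, Serping1 from 126 to 447, C1s1 from 30.0 to 111 and C1ra from 18.3 to 62.2, while Cfb was at 308 and 290.3. Even the lowest bin of 5m AS by either list thus held more C3 than the WT section as a whole, at 12.0.

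**Figure D3:**
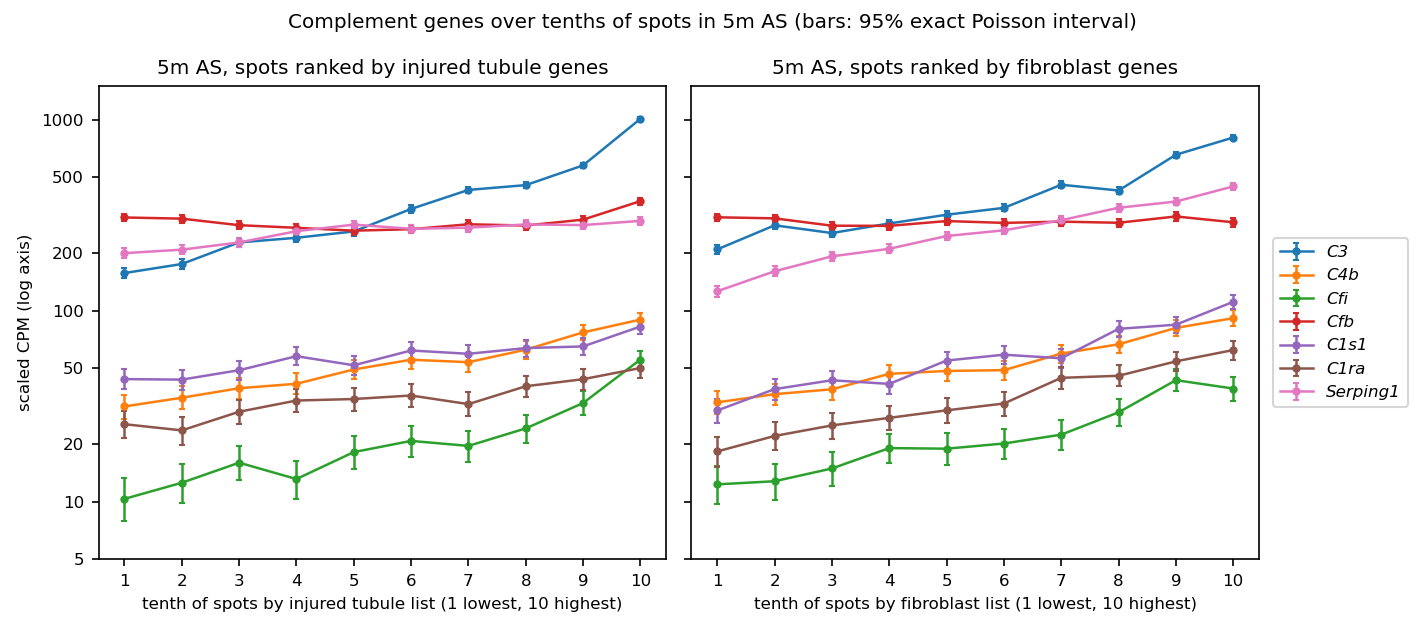
Level of the 7 genes in 10 equal bins of 5m AS spots ranked by the injured tubule list (left) or the fibroblast list (right), in scaled CPM on a log axis, with bars for 95% exact Poisson intervals. C3 climbs to 1010 in the top bin by injured tubule genes, Serping1 climbs more steeply by fibroblast genes, and Cfb is flat by fibroblast genes.

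The lists overlap in their spots, so spots in the top 20% by only 1 of these lists were compared, a split chosen after the data were seen. In 5m AS, the 214 spots high by the injured tubule list only had 639 scaled CPM of C3, the 214 high by the fibroblast list only 441, spots high by both 994 and spots high by neither 265. Serping1 was at 245, 480, 342 and 223 in the same order. C3 was thus higher on the injured tubule side, at 1.45 times (1.38 to 1.53), and Serping1 on the fibroblast side, at 0.510 times (0.479 to 0.544).

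Over the 6 libraries the ratio of the injured tubule side to the fibroblast side was below 1 in all 6 for Serping1 (0.269 to 0.763), C1s1 (0.288 to 0.875) and C1ra (0.395 to 0.842), with intervals in WT that reach above 1 for C1s1 and C1ra. It was above 1 for C3 in 5m AS, early treated (1.85) and late treated (1.56), and below 1 in WT (0.619), 2m AS (0.559) and the mixed library (0.314). With Spp1 left out of the injured tubule list it was again below 1 in all 6 for Serping1 (0.348 to 0.605), C1s1 (0.403 to 0.787) and C1ra (0.497 to 0.632), and above 1 for C3 in the same 3 libraries (1.49, 2.55 and 1.95). Cfi was above 1 in 6 of 6 (up to 2.12), with intervals that span 1 in 4 of them, and in 3 of 6 without Spp1, and C4b in 2 of 6 and in 0 of 6 without Spp1. Cfb was above 1 in 3 of 6 libraries and in 5 of 6 without Spp1.

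**Figure D4:**
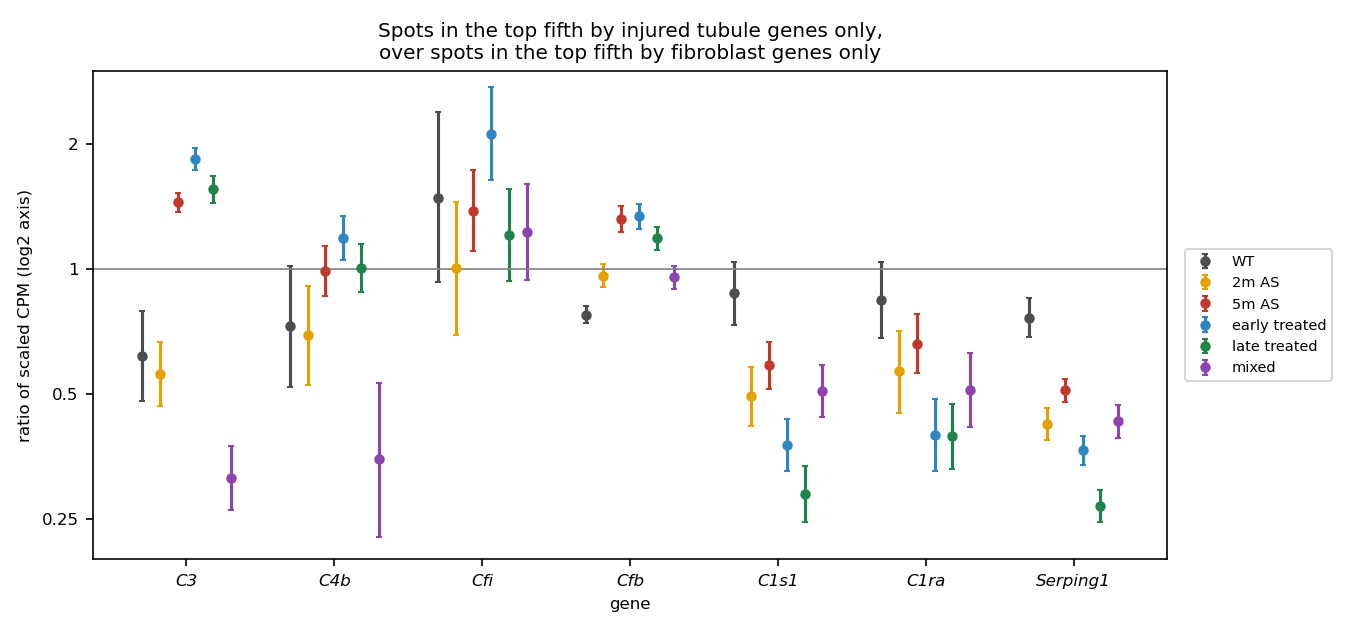
Ratio of each gene's level in spots high by the injured tubule list only to its level in spots high by the fibroblast list only, on a log2 axis, with 1 point per library and 95% exact intervals. C3 lies above 1 in the 3 libraries of 5 months and below 1 in WT, 2m AS and the mixed library, while C1s1, C1ra and Serping1 lie below 1 in all 6.

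Each spot was also assigned to whichever of 6 nephron lists scored highest in it, which gave 6 kinds of spot. Between 13.8% and 22.6% of spots lay within 0.1 standard deviations of a second list, so these kinds shade into each other, and a spot named by a list need not hold mainly that cell type. Their shares differed between the libraries, with early proximal tubule spots at 29.0% in WT and 4.62% in 5m AS and podocyte spots at 9.24% and 25.0%. C3 was at 37.5 scaled CPM in podocyte spots of WT and 8.97 to 15.6 in the other 5 kinds, and in 5m AS at 635 in podocyte spots and 243 to 476 in the others.

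In 5m AS over WT, C3 was at least 2-fold higher in 6 of 6 kinds of spot, from 16.9 times in podocyte spots to 42.6 in collecting duct spots. C4b (5.96 to 10.0 times), Cfi (4.87 to 11.4) and Serping1 (2.92 to 5.41) were also higher in 6 of 6. C1s1 and C1ra were each 2-fold higher in 3 of 6, and Cfb in none, at 0.591 to 0.804 times. With the kinds of spot weighted alike in both libraries, C3 was 24.7 times as high, in place of 32.2. The direction of these 7 genes was thus the same in each kind of spot.

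In late treated over 5m AS, C3 was at least 2-fold lower in 6 of 6 kinds of spot, from 0.218 times in distal convoluted tubule spots to 0.432 in podocyte spots. Cfi was 2-fold lower in 3 of 6 and Serping1 in 2 of 6, down to 0.339 in late proximal tubule spots. With the kinds weighted alike, Cfi was at 0.458 times and Serping1 at 0.525 times, so Cfi passed 2-fold and Serping1 did not. In early treated over 5m AS, C3 was at 0.526 to 0.880 times in the 6 kinds and 2-fold lower in none.

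**Figure D5:**
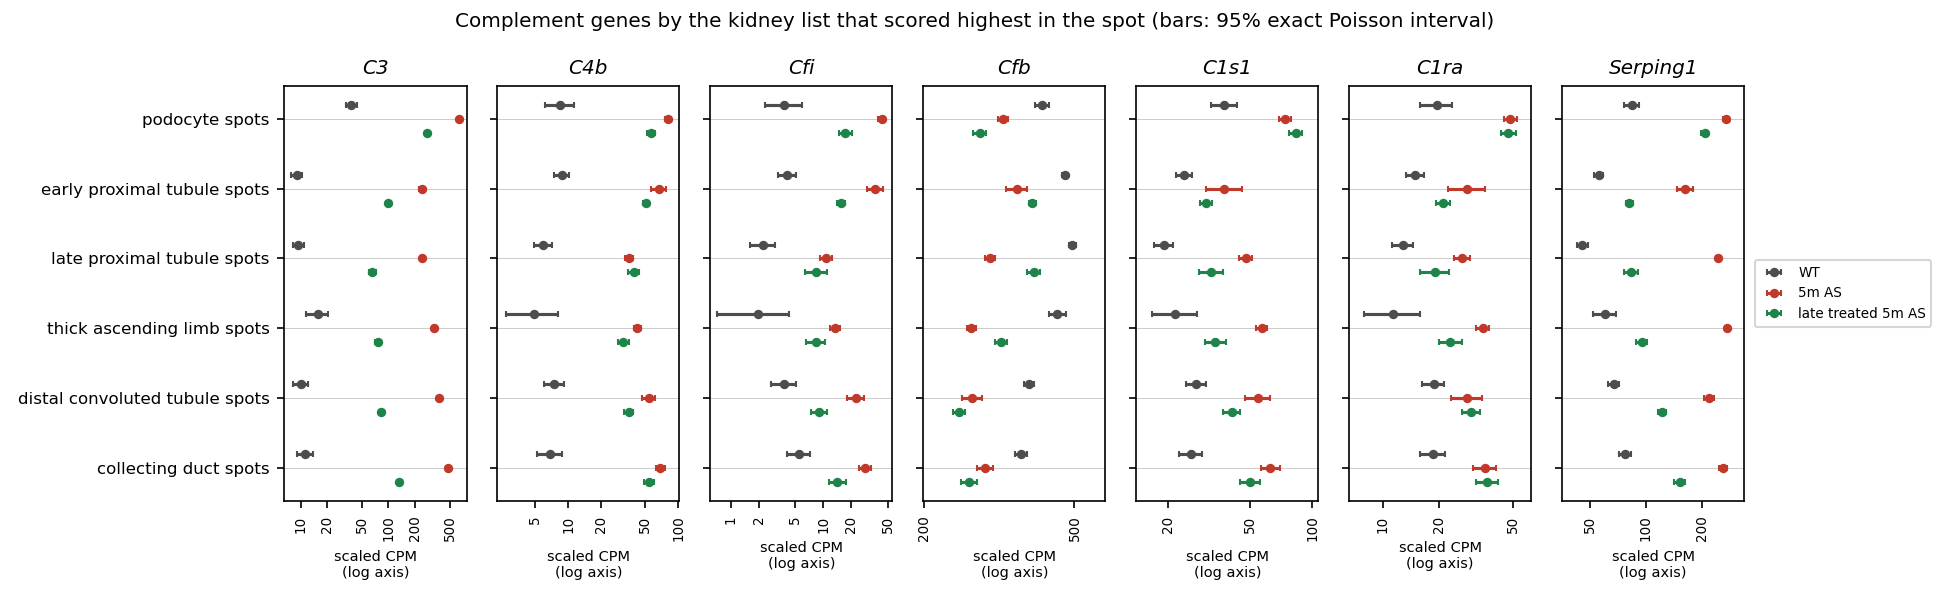
Level of the 7 genes in 6 kinds of spot, named by the nephron list that scored highest, in WT, 5m AS and late treated 5m AS, in scaled CPM on log axes with 95% exact Poisson intervals. C3 in late treated 5m AS (65.5 to 274) lies between WT and 5m AS in all 6 kinds, and Cfb in WT lies above both other libraries in all 6.

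Spot by spot the 7 genes had low correlations, at counts that were sparse. In 5m AS, Pearson's r over 1932 thinned spots was 0.21 for C3 with C4b, 0.17 with Cfi, 0.10 with Cfb and 0.06 with Serping1, and 0.15 for C1s1 with Serping1. Over spots thinned to 2500 UMIs these were 0.14, 0.08, 0.09, 0.04 and 0.08 in the same order, so r fell with depth. At 5000 UMIs the mean per 5m AS spot was 2.36 UMIs for C3, 0.327 for C4b and 0.129 for Cfi, so a low r need not mean a weak tie. The r of C3 with the injured tubule list was 0.48, 0.44 and 0.46 in untreated, early treated and late treated 5m AS, and 0.01 to 0.13 in the other 3 libraries. C3 had a mean of only 0.0522 to 0.136 UMIs per thinned spot in those 3, against 0.823 to 2.36 in the libraries of 5 months. These r therefore cannot be compared as strengths of a tie. The spots share a library and their tissue neighbours, so no p is given.

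Of 10186 genes, those most alike to C3 over spots were Cd74, Vcam1, Spp1, H2-Ab1 and Mgp, with a mean r over the 6 libraries of 0.28 for Cd74 and 0.24 for Mgp. Among those most alike to Serping1 were Mgp (0.33), Apoe, Bgn and Cst3. Mgp was also first for C1s1 (0.20) and C1ra (0.15), with Tmsb4x, Apoe and Bgn for both. For Cfb they included Gpx1 (0.21), Slc34a1, Cyp4b1 and Acsm2, and they were for C4b Cd74 (0.11), B2m, H2-Eb1, H2-Ab1 and Mgp, and for Cfi Spp1 (0.11), Gpx3, C3, Ndrg1 and Lgmn.

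By their levels over the 6 libraries, centred on the log2 scale, the genes nearest to C3 included Ubd (root mean square difference 0.23) and Lyz2, and those nearest to C4b were Dpysl3 (0.38), Col1a1 and Thbs2. Nearest to Cfi were Myof (0.12), Cd300c2 and Nupr1, and those nearest to Serping1 included Rgs10 (0.091) and Lhfpl2. For C1s1 they were Tgfbi (0.071), Stk17b and Prex1, for C1ra Trim30a (0.072), Wipf1 and Fbln2, and for Cfb Smn1 (0.082), Ntn1 and Rxra.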

How the data were processed

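The authors deposited filtered matrices of UMI counts per gene and spot for 6 kidney sections, in whole numbers and not normalized. Per the file headers and the submitters' processing notes they were made with Space Ranger 1.2.1 (WT, 5m AS) or 1.3.1 (the other 4) on mm10. For the annotation and strand handling no source used here gives a statement. Spot positions were not used, and the mixed library, read as 2 animals, counted as 1 sample.

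UMIs were summed over spots and scaled with TMM factors (edgeR 4.0.16, R 4.3.3) to CPM. Ratios carry exact Clopper-Pearson intervals for Poisson counts, which cover counting error only. A gene counted as apart at 2-fold, among genes with a mean of at least 1 scaled CPM. Thinning to 5000 UMIs used seed 1, and the interval and ranking code was checked on simulated data. Coordinates are from GENCODE, and promoters from RefSeq. All 7 genes were named, with up to 4 other complement genes per role by their ratio of 5m AS to WT, and the C4, C1r and C1s copies. The genes most alike by spot and by library were named too. These left out predicted, haemoglobin, immunoglobulin, mitochondrial and ribosomal protein genes, genes of chromosome Y, Xist and Tsix, while other genes of chromosome X were kept. A few more were named after their values were seen, and some genes are not reported here. The 7 genes, the pathway and marker lists and the comparisons were chosen with earlier results of these data known. Alternatives covered scaling, filters, fold, thinning, ranking and the control library.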

Additional observations from a re-analysis of the deposited data

How the results depend on the processing

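No paired analysis was possible because each group had 1 library. With 1 library per group the intervals cover counting error only, and sparse genes such as Cfi in WT (246 UMIs) are the least precise. The count of genes at least 2-fold higher in 2m AS over WT was 1, and was 0 with plain CPM, 0 without mitochondrially encoded genes, 2 with kinds of spot weighted alike and 3 at 1.5-fold. For late treated over WT it was 3, and was 6 with plain CPM, 6 without mitochondrially encoded genes, 5 with each spot weighted equally and 6 at 1.5-fold. For mixed over WT it was 2, and 1 with kinds of spot weighted alike. The count at least 2-fold lower there was 1, and was 0 with plain CPM, median-of-ratios factors, without mitochondrially encoded genes and with kinds of spot weighted alike, and 2 at 1.5-fold. For early over late treated the count higher was 1, and 4 at 1.5-fold. Alternatives for these counts were added after the data were seen. For early treated over WT the count higher was 5, and 2 with the mixed library in place of WT. The share of all genes was not counted at 1.5-fold, with kinds of spot weighted alike or with the mixed library in place of WT. The counts higher for 5m AS over WT and over 2m AS, and the counts lower for both treated libraries over 5m AS and for early over late treated, stayed within 1.5 times under each alternative run. Even so, with the mixed library in place of WT, Cfi and C1s1 were no longer 2-fold higher in 5m AS, nor was Cfi in late treated 5m AS. Of 63 log2 ratios, 60 kept their sign with plain CPM, 61 without mitochondrially encoded genes, 62 with kinds of spot weighted alike, and 63 with each spot weighted equally and with median-of-ratios factors. With the mixed library in place of WT, 21 of 28 kept it. The cause of these shifts was not tested.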
